A study of Mus musculus with 220 samples.

Results

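The genes described here are 9 genes of hepatic glucose production and its control by insulin: Pck1, G6pc, Fbp1, Pklr, Irs2, Igfbp1, Ppargc1a, Foxo1 and Tat. They were chosen by name, and all their probe sets were read in the livers of 220 female mice of the atherosclerosis panel known as Ath-HMDP, with 1 Affymetrix expression array per mouse. Of the 9 genes, 7 have probe sets named for them alone (9 probe sets, of 45037 analysed, and of 17097 genes with such a probe set). Ppargc1a is read by 5 probe sets that the platform annotation assigns to Ppargc1a and Asic2 together, so these are reported as a shared signal, and no probe set is named for Irs2 in the annotation used here.

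Every mouse was an F1 animal: the mothers came from 96 inbred strains, and the fathers were C57BL/6J mice with the human transgenes APOE-Leiden and CETP. All mice, those from C57BL/6J mothers included, carried both transgenes, were fed chow up to 8 weeks of age and then, for 16 weeks, a Western diet with cocoa butter and cholesterol, and were 24 weeks old when the liver was taken, so there is no group without transgenes or on chow throughout. Each mouse therefore had 1 set of chromosomes from C57BL/6J, and a strain difference here is the difference between maternal strains in that setting. The fathers were heterozygous for APOE-Leiden and homozygous for CETP, and the insertion sites of the transgenes are not known. The strains are 29 classical inbred strains (65 mice) and 4 sets of recombinant inbred strains. The BXD set (C57BL/6J and DBA/2J as progenitors) has 34 strains and 83 mice, the AXB/BXA set (with A/J) 21 strains and 47 mice, the CXB set (with BALB/cJ) 8 strains and 17 mice, and the BXH set (with C3H/HeJ) 4 strains and 8 mice. Of the 96 strains, 9 had 1 mouse, 51 had 2, 35 had 3 and 1 had 4.

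In the liver, the fasting state raises the flow of carbon from lactate and amino acids back to glucose, and insulin lowers it. Glucagon, through cAMP and the coactivator PGC-1α (Ppargc1a), and glucocorticoids raise transcription of Pck1 (cytosolic phosphoenolpyruvate carboxykinase), G6pc (the catalytic subunit of glucose-6-phosphatase) and Tat (tyrosine aminotransferase), whereas insulin, acting through Irs2 and the kinase Akt, keeps the transcription factor FoxO1 out of the nucleus and so lowers G6pc, Pck1 and Igfbp1, a secreted binding protein of insulin-like growth factors. Fbp1 is fructose-1,6-bisphosphatase, and Pklr is the liver pyruvate kinase, the glycolytic enzyme opposed to gluconeogenesis, whose transcription rises with glucose and insulin.

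The proximal promoters of this gene group are classical examples of hormone response elements, and 4 of them are shown because they hold the letters that were searched for. The sequences are the 250 bases before the RefSeq start on build GRCm38.p6, all on the plus strand, 5′ to 3′, with matches in capitals: TTACGTCA, a cAMP response element form, in Pck1 at chr2:173152823-173153072; TGTTTTG, a forkhead or insulin response form, and TATAAA in G6pc at chr11:101367466-101367715; CAAAACA, the reverse complement of TGTTTTG, in Igfbp1 at chr11:7197537-7197786; and TATAAA in the more downstream of the 2 windows of Pklr at chr3:89136373-89136622.
Pck1: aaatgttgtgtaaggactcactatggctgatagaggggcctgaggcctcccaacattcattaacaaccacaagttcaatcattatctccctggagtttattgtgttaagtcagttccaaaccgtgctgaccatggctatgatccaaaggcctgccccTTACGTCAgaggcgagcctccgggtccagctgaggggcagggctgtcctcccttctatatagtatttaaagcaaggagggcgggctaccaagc
G6pc: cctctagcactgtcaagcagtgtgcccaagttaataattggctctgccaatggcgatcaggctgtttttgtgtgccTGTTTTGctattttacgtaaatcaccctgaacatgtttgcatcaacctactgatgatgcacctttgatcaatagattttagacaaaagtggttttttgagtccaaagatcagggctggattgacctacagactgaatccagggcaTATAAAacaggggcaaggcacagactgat
Igfbp1: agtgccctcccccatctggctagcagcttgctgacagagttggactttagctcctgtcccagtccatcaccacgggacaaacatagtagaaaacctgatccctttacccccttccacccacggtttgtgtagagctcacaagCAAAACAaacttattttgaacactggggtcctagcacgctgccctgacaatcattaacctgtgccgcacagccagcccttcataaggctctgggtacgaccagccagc
Pklr: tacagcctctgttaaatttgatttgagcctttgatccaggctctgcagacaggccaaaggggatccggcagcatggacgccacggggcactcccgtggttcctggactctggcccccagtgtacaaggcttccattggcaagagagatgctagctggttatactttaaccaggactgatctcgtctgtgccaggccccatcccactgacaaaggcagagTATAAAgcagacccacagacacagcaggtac
Both strands were searched for 5 motifs, none of which overlapped another in these windows. TTACGTCA lies 93 to 86 bases before the Pck1 start and is in 0.447% of all 32851 windows of this length. TGTTTTG lies 174 to 168 bases before the G6pc start, and its reverse complement lies 108 to 102 bases before that of Igfbp1; 5.56% of windows hold it, the window of Irs2 among them. TATAAA lies 29 to 24 bases before the G6pc start and 31 to 26 before the Pklr start, and is in 12.4% of windows. TGACGTCA (1.55% of windows) and TGTTTAC (3.17%) are in no window of the 9 genes. These are matches of letters in the C57BL/6J reference, not measurements of binding.

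All values below are log2 array signals, so 1 unit is a doubling of signal, and levels are not compared between genes. The arrays were alike (median correlation with the others from 0.981 to 0.992), and the hepatocyte marker Alb lay between 13.28 and 13.78 in every mouse, while the adipocyte marker Adipoq and the kidney marker Umod stayed below the median probe set mean of 3.46. The muscle gene Acta1 exceeded that level in 7 mice. The clock gene Dbp ranged from 3.06 to 9.36. Per the paper, mice were fasted from early morning before blood was drawn at euthanasia. Whether the range of Dbp reflects the phase of the liver clock at collection was not tested. Among the genes reported here, Fbp1, Igfbp1, Tat and G6pc are bright (means of 12.61, 10.66, 10.66 and 9.92), Pklr is intermediate (8.58), and the probe sets of Pck1 and Foxo1 lie in the dim part of the scale (2.92 and 2.89, below the median of all probe sets). Pck1 mRNA is known to be abundant in liver, yet the mean of its only probe set is at percentile 32.1 of all probe sets, so whether that probe set reads the main transcript is not known, and each value of Pck1 below is that of this probe set. In whole liver, fewer cells of a type and less RNA per cell cannot be told apart.

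**Figure D1:**
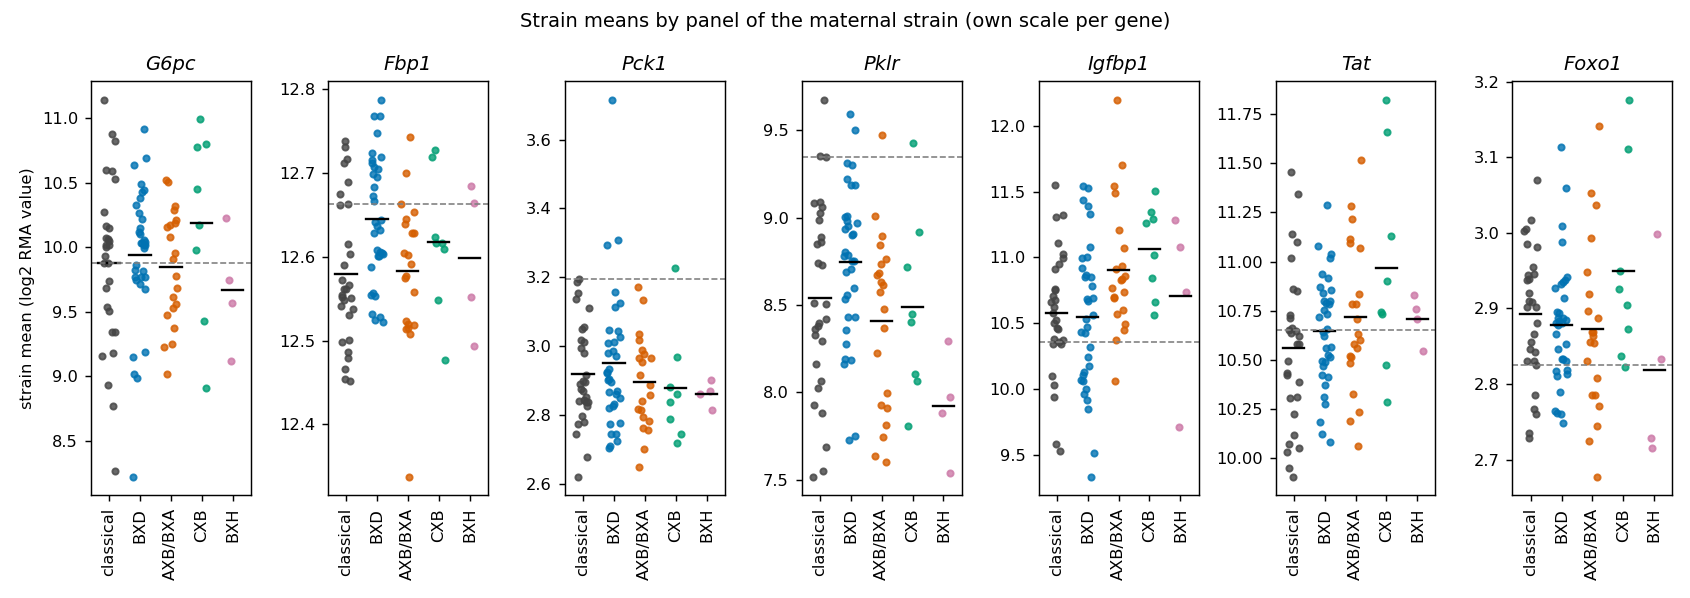
Strain means of log2 signal (vertical axis) of the 7 genes with their own probe set, in the 5 panels (horizontal axis); each point is 1 maternal strain, the black line is the mean of the panel's strains and the grey dashed line the mean of C57BL/6J. The points of G6pc and Igfbp1 span 8.22 to 11.14 and 9.33 to 12.20, those of Fbp1 12.34 to 12.79, and the points of the panels overlap for each gene.

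The first comparison asks whether maternal strain affects the signal beyond the spread between mice of a strain. It did for 6 of the 7 genes, by an F test over the 87 strains with at least 2 mice (211 mice; limma, Benjamini-Hochberg adjustment over all probe sets). For comparison, 59.2% of all genes passed the same test, and 89.2% of genes did when only probe sets with a mean above the median were fitted, as 5 of the 7 have. The share of variance that lay between strains was 0.589 for Igfbp1 (adjusted p = 2.89e-14), 0.582 for Pklr (6.65e-14), 0.528 for G6pc (1.77e-11), 0.519 for Fbp1 (1.38e-08), 0.508 for Tat (1.36e-10) and 0.330 for Pck1 (6.52e-05). The median share of the 7 genes was 0.519, against 0.251 for all genes, 0.370 for all probe sets with a mean above the median and 0.440 for all genes that passed. Foxo1 had a share of 0.103 and was not called (adjusted p = 0.205). Without the mice numbered 2, which leaves 36 strains, the calls of Pck1 (0.181) and Tat (0.145) were lost, and that of Pck1 was also lost without those numbered 1 (0.196). The labels do not say whether mice of a strain shared a litter, a cage or a day, so these p-values measure the spread between mice as sampled.

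G6pc, which carries out the last step of glucose release, had the widest range of strain means of the 7 genes, from 8.22 in the single BXD22/TyJ mouse to 11.14 in SWR/J, a 7.56-fold range of signal. The 3 A/J mice read 8.20, 7.73 and 8.88, and the 2 SWR/J mice 11.07 and 11.21. MA/MyJ and SM/J were in the middle of the order (10.00 and 10.01), and the C57BL/6J mice read 9.74 and 10.00. The difference from the mean of the other 95 strains was -1.66 in A/J (SE 0.25, adjusted p = 4.04e-07) and 1.25 in SWR/J (SE 0.30, adjusted p = 0.00494). Over all genes and strains, 2.35% of such comparisons were called higher and 2.34% lower. In all, 6 strains were called higher for G6pc (SWR/J, CXB3/ByJ, BXD50/RwwJ, C58/J, CXB8/HiAJ and BXD1/TyJ) and 5 lower (BXD22/TyJ, A/J, C3H/HeJ, I/LnJ and BXA4/PgnJ). The call of BXD22/TyJ rests on 1 mouse, which the fit assumes to vary like mice of the other strains. The calls of BXD1/TyJ (adjusted p = 0.0497), C58/J (0.0457) and I/LnJ (0.0415) lay close to the threshold and did not hold under every other setting.

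Fbp1, which makes fructose 6-phosphate on the way to glucose, was the brightest of the genes and had a narrow range, from 12.34 in AXB15/PgnJ to 12.79 in the single BXD29/TyJ mouse, or 1.37-fold, with AXB6/PgnJ and the single BXD34/TyJ mouse in the middle (both 12.60). The spread within strains was narrower still (SD 0.07), so that small differences were called. The 3 AXB15/PgnJ mice read 12.34, 12.41 and 12.27, a difference of -0.27 from the other strains (SE 0.04, adjusted p = 5.69e-06), and that of BUB/BnJ was -0.15 (adjusted p = 0.0276). BXD14/TyJ and BXD24/TyJ-Cep290<rd16>/J were each 0.16 higher (adjusted p = 0.0182 and 0.0189).

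Pck1, the entry step from oxaloacetate, ranged from 2.62 in SEA/GnJ to 3.72 in BXD50/RwwJ, a 2.13-fold range of a dim signal, with BXA4/PgnJ and I/LnJ in the middle (both 2.89). The 2 BXD50/RwwJ mice read 3.83 and 3.60, 0.80 above the other strains (SE 0.12, adjusted p = 8.41e-07). BXD50/RwwJ was also 1.01 higher for G6pc (adjusted p = 0.0344), with mice at 10.99 and 10.84. BXD73/RwwJ (0.38 higher, adjusted p = 0.0133) and BXD38/TyJ (0.39 higher, adjusted p = 0.0488) were the other strains called, and no strain was called lower for Pck1; at an unadjusted p under 0.05, 5 strains were lower.

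**Figure D2:**
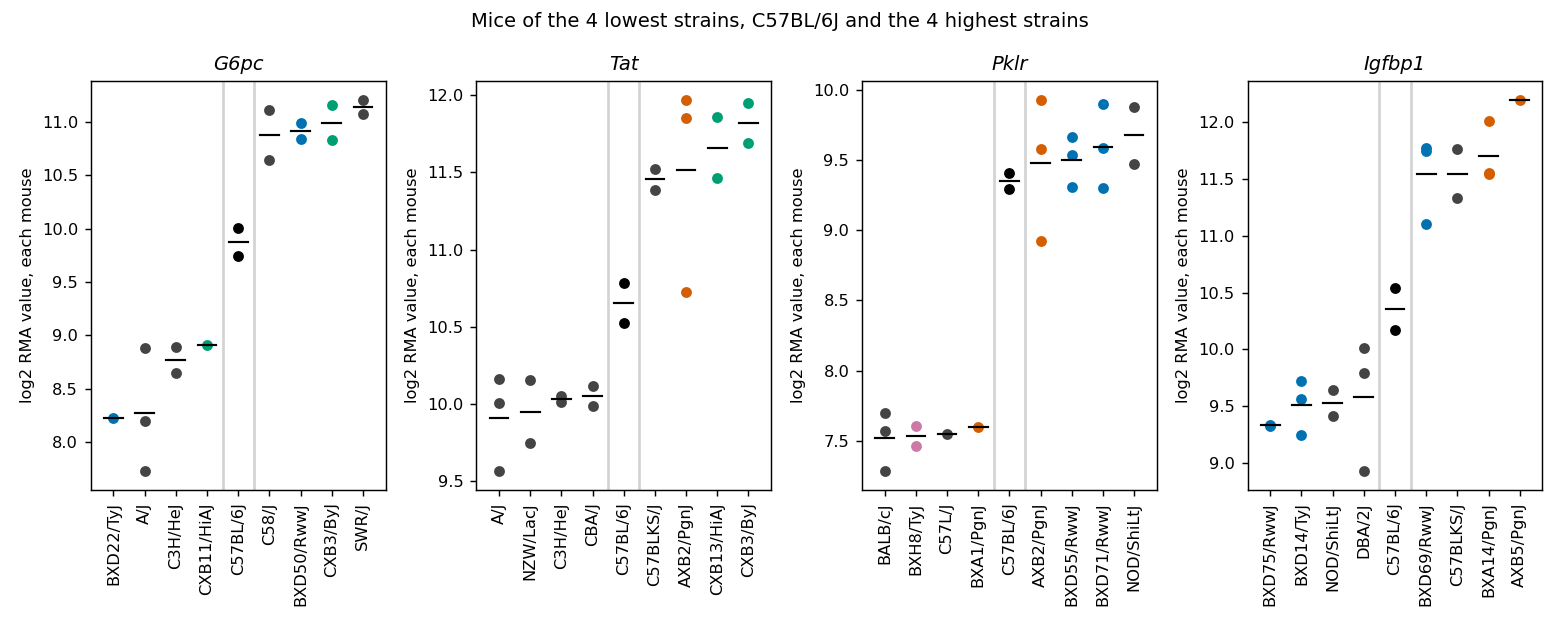
Log2 signal (vertical axis) of each mouse of the 4 strains with the lowest means, of C57BL/6J and of the 4 strains with the highest means (horizontal axis) for G6pc, Tat, Pklr and Igfbp1; each point is 1 mouse and the bars are strain means. For G6pc, A/J mice lie between 7.73 and 8.88 and SWR/J mice at 11.07 and 11.21. The strains were picked by these same means, so a gap between the lowest and the highest is built into the choice.

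Pklr, whose product makes pyruvate in glycolysis, ranged from 7.52 in BALB/cJ to 9.67 in NOD/ShiLtJ, a 4.46-fold range, with BXD84/RwwJ and AXB19b/PgnJ in the middle (8.60 and 8.61). The BALB/cJ mice read 7.57, 7.70 and 7.28, and the NOD/ShiLtJ mice 9.88 and 9.47. The difference from the other strains was -1.05 in BALB/cJ (SE 0.21, adjusted p = 0.000449) and 1.13 in NOD/ShiLtJ (SE 0.26, adjusted p = 0.00273). Here 6 strains were called lower (BALB/cJ, BXH8/TyJ, SM/J, BXA4/PgnJ, BXD40/TyJ and AXB6/PgnJ) and 6 higher (NOD/ShiLtJ, BXD71/RwwJ, BXD55/RwwJ, AXB2/PgnJ, CXB13/HiAJ and FVB/NJ). The SM/J mice differed from each other by more than most strains did (7.16 and 8.21). Pklr has 3 probe sets, whose strain means correlated with r from 0.87 to 0.95. The 3 probe sets called 20 strains in all, none in opposite directions; 4 strains were called higher (AXB2/PgnJ, BXD55/RwwJ, BXD71/RwwJ and NOD/ShiLtJ) and 2 lower (BALB/cJ and BXH8/TyJ) by all 3. Of the 20, 11 were called by 1 probe set only, CXB13/HiAJ, FVB/NJ, BXD40/TyJ, SM/J and AXB6/PgnJ among them.

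Igfbp1, a secreted protein whose transcript falls with insulin, had the highest share of variance between strains. Its strain means ran from 9.33 in BXD75/RwwJ to 12.20 in the single AXB5/PgnJ mouse, a 7.29-fold range, with BXA14/PgnJ next at 11.70 and AXB19a/PgnJ and BXD20/TyJ in the middle (both 10.69). The BXD75/RwwJ mice read 9.34 and 9.33, and the BXA14/PgnJ mice 11.54, 11.55 and 12.01. The difference from the other strains was -1.37 in BXD75/RwwJ (SE 0.26, adjusted p = 0.000164) and 1.03 in BXA14/PgnJ (SE 0.22, adjusted p = 0.000707). Of all strains, 9 were called lower (BXD75/RwwJ, BXD14/TyJ, NOD/ShiLtJ, DBA/2J, BXH6/TyJ, BXD56/RwwJ, BXD5/TyJ, FVB/NJ and BXD13/TyJ) and 7 higher (AXB5/PgnJ, BXA14/PgnJ, C57BLKS/J, BXD69/RwwJ, AXB15/PgnJ, CXB8/HiAJ and BXD40/TyJ). The call of AXB5/PgnJ likewise rests on 1 mouse. The 3 DBA/2J mice read 9.79, 10.02 and 8.93.

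Clock gene scores moved with Igfbp1. A score of genes that peak together by day (mean z-score of Dbp, the Period genes and others, over all mice) was highest of the 96 strains in BXD75/RwwJ (2.47), the strain with the lowest Igfbp1, and lowest in AXB5/PgnJ (-1.91), the mouse with the highest. With the 2 clock scores as covariates, the share that lay between strains was 0.568 for Igfbp1, 0.557 for Pklr, 0.544 for G6pc, 0.509 for Fbp1, 0.464 for Tat and 0.313 for Pck1, and no strain call of the F test was lost. The part of clock phase in the value of a single strain was not tested.

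Tat, which starts the breakdown of tyrosine and is a textbook target of glucocorticoids and glucagon, ranged from 9.91 in A/J to 11.82 in CXB3/ByJ, or 3.77-fold, with BXD5/TyJ and MA/MyJ in the middle (10.64 and 10.65). The A/J mice read 10.16, 9.56 and 10.00, and the CXB3/ByJ mice 11.69 and 11.95. The difference was -0.77 in A/J (SE 0.18, adjusted p = 0.00248) and 1.17 in CXB3/ByJ (SE 0.21, adjusted p = 6.84e-05). NZW/LacJ and LG/J were also called lower, and CXB13/HiAJ, AXB2/PgnJ and C57BLKS/J higher. In AXB2/PgnJ 1 mouse (10.73) lay well below the other 2 (11.86 and 11.97). The clock-day score was 1.46 in CXB3/ByJ, 1.61 in AXB2/PgnJ, 1.24 in CXB13/HiAJ and 0.57 in C57BLKS/J. BXD75/RwwJ, with the highest score of all strains, was not called for Tat. Over the 96 strains the score had r = 0.29 with Tat, and 0.20 without the 2 strains farthest from the median of Tat.

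Foxo1, the transcription factor on which insulin acts, had strain means from 2.68 in BXA24/PgnJ to 3.18 in CXB13/HiAJ, 1.41-fold apart, with BXD32/TyJ and SM/J in the middle (both 2.88). Only CXB13/HiAJ was called (0.29 higher, adjusted p = 0.0479), and not under every other setting. The only probe set of Foxo1 is dim (mean 2.89, percentile 30.0 of all probe sets), so whether it reads the Foxo1 transcript is not known. Few calls on it therefore do not show that Foxo1 mRNA was alike across strains. FoxO1 is also regulated to a large part by phosphorylation, which an mRNA array does not read.

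The 5 probe sets shared by Ppargc1a and Asic2, an ion channel subunit of neurons, had shares of variance between strains from 0.406 to 0.573, and their strain means correlated with each other with r from 0.72 to 0.91. On the brightest of them (mean 7.04), 8 strains were called higher and 2 lower. AXB2/PgnJ (7.56, 8.36 and 8.06) and CXB3/ByJ (7.38 and 8.55) were 0.98 and 0.95 above the other strains (adjusted p = 1.07e-07 and 3.96e-05), and both were called higher on all 5 shared probe sets. BXD50/RwwJ, with 7.90 and 7.87, was 0.87 higher (adjusted p = 0.000239). The arrays alone do not say which of these transcripts the signal comes from.

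Of the 672 combinations of strain and gene, 54 were called (8.04%, 29 higher and 25 lower), in 40 strains, 2 of the calls on single mice. The same fit called 4.69% of the combinations of strain and gene over all genes. Most of the genes reported here have a mean above the median probe set. The share called over such bright genes alone was not counted, so 8.04% is not shown to be particular to this gene group. More than 1 gene was called in 13 strains. G6pc and Tat were both lower in A/J and both higher in CXB3/ByJ. Pklr and Igfbp1 were called together in 3 strains, each time in opposite directions: Pklr was higher and Igfbp1 lower in NOD/ShiLtJ and FVB/NJ, and the reverse held in BXD40/TyJ; for FVB/NJ and BXD40/TyJ, 1 of the 3 probe sets of Pklr was called. Fbp1 and Igfbp1 were called in opposite directions in AXB15/PgnJ and BXD14/TyJ. CXB13/HiAJ was the only strain called for 3 genes, Foxo1, Pklr and Tat, all higher, with Foxo1 near the threshold on a dim probe set and Pklr on 1 of its 3 probe sets. In the order of the 96 strain means, nearly all neighbours lay closer than the SD between mice of a strain: of the 95 gaps, 1 was larger for each of Pck1, G6pc, Fbp1 and Igfbp1, and 0 for Pklr, Tat and Foxo1.

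The progenitors of the recombinant inbred sets were next set against C57BL/6J, whose 2 mice serve as the control in each of these comparisons. In A/J, G6pc was lower than in C57BL/6J by a difference of -1.61 (SE 0.39, adjusted p = 0.00256). Pklr read 7.88, 7.62 and 8.14 in A/J and 9.29 and 9.40 in C57BL/6J, a difference of -1.47 (SE 0.33, adjusted p = 0.0013). The mice of both strains did not overlap for either gene, but how many of all genes also did not overlap between so few mice was not counted. These were 2 of the 7 genes called, both lower, where 5.91% of all genes were called higher and 4.61% lower. The G6pc call was lost without 1 of the C57BL/6J mice (-1.48, adjusted p = 0.06). In BALB/cJ, Pklr was lower, with a difference of -1.83 (SE 0.33, adjusted p = 4.16e-05), the only one of the 7 genes called, where 5.52% of all genes were called higher and 4.20% lower. The other probe sets of Pklr gave -1.62 and -1.55 in A/J and -1.69 and -1.53 in BALB/cJ, all called.

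In C3H/HeJ, 0 of the 7 genes were called by limma on the brightest probe set, and 5 had an unadjusted p under 0.05, where 8.53% of all genes were called in either direction; the difference was -1.05 for Pklr (adjusted p = 0.0686) and -1.11 for G6pc (adjusted p = 0.11), and a dimmer probe set of Pklr was called (-1.40, adjusted p = 0.0387). In DBA/2J, 0 of the 7 genes were called by limma, where 2.10% of all genes were; 1 had an unadjusted p under 0.05, Igfbp1, with a difference of -0.77 (adjusted p = 0.334). Igfbp1 read 0.76 above C57BL/6J in BALB/cJ (adjusted p = 0.186) and 0.95 above it in C3H/HeJ (adjusted p = 0.118), neither called.

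**Figure D3:**
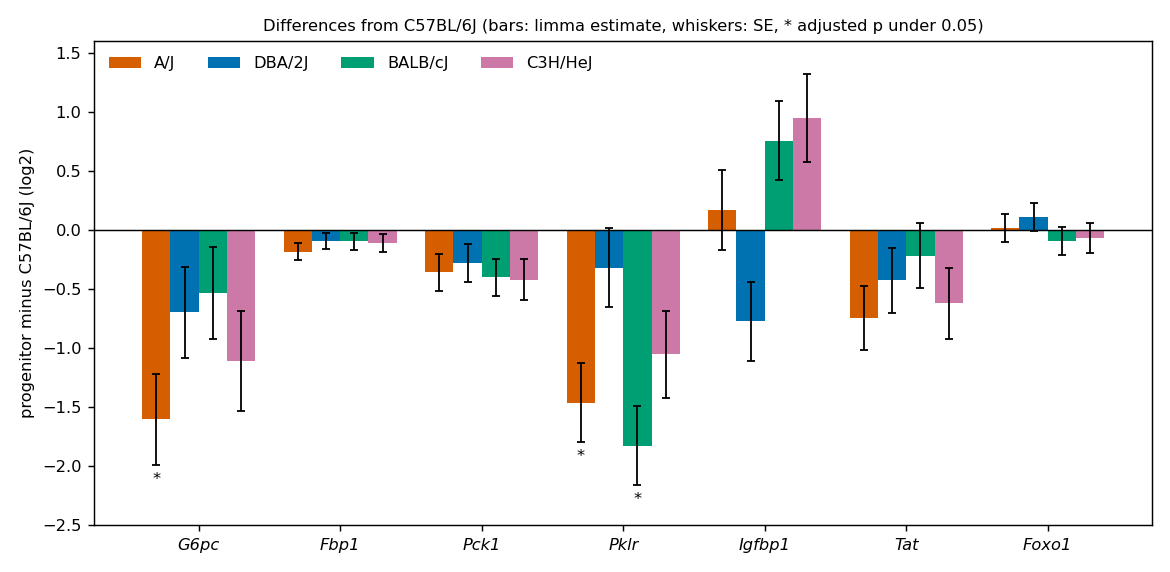
Difference in log2 signal between each of 4 progenitor strains and C57BL/6J (vertical axis) for the 7 genes (horizontal axis); bars show the difference, lines its SE, and * an adjusted p under 0.05 by limma. The called values are the lower Pklr in A/J (-1.47) and BALB/cJ (-1.83) and the lower G6pc in A/J (-1.61); all 4 comparisons share the same C57BL/6J mice.

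The panels were compared next. An F test of the 5 panels by limma on strain means called 0 of the 7 genes, where 8.72% of all genes were called; 3 of the 7, Pklr, Igfbp1 and Fbp1, had an unadjusted p under 0.05. Mean Pklr signal was 8.75 over BXD strains, 8.54 over classical, 8.49 over CXB, 8.41 over AXB/BXA and 7.92 over BXH strains (adjusted p = 0.098), and 1 of its dimmer probe sets was called (0.0354). Mean Igfbp1 signal was 11.06 over CXB, 10.91 over AXB/BXA, 10.70 over BXH, 10.58 over classical and 10.55 over BXD strains (adjusted p = 0.146). With mice in place of strain means and strain as a random block, Fbp1, Pklr, Igfbp1 and Tat were called, where 21.5% of all genes were. That fit used 1 within-strain correlation of 0.183 for all probe sets. The shares of variance between strains of these genes were higher, 0.508 to 0.589, so their p-values there are likely too small.

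Within panels, strain was tested on the strains with at least 2 mice. Among the 27 such classical strains, 4 of the 7 genes were called (G6pc, Pklr, Igfbp1 and Tat), where 45.4% of all genes were. Among the 31 BXD strains, 6 were called, all but Foxo1, against 42.2% of all genes; Pck1 had a share of 0.520 there and 0.146 among classical strains, a difference that was not tested. Among the 18 AXB/BXA strains, G6pc, Pklr, Igfbp1 and Tat were called, against 29.0% of all genes. In CXB (7 strains) and BXH, 0 of the 7 were called by limma, where 1.95% and 1.75% of all genes were, and 4 and 3 had an unadjusted p under 0.05; G6pc in CXB had a share of 0.649 (adjusted p = 0.0528). Without the mice numbered 2, 2 of the 7 genes were called in classical strains, where 12.7% of all genes were. In BXD strains 1 was called (15.8%) and in CXB strains 2 (0.690%). These fits kept only strains that still had at least 2 mice, 36 over all panels against 87 before. In CXB only the strains with 3 mice remained, so this is not the same test as that of the 7 strains.

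The next question was which of the genes varied together across the 96 strain means. Of the 21 pairs of 7 genes, 12 were called after Benjamini-Hochberg adjustment of permutation p-values (100000 permutations, two-sided), 9 with a positive and 3 with a negative r. The same number was called by Spearman's rho. The values of both genes of a pair come from the same arrays. Related strains of 1 panel are not fully independent, so permutation p-values over strains, here and below, may be too small. G6pc and Tat had the highest r, 0.62 (rho 0.64, permutation p = 1e-05, the smallest these permutations can give, adjusted p = 7e-05). Their r was 0.64 within classical strains, 0.50 within BXD, 0.68 within AXB/BXA and 0.90 within CXB, and 0.62 without the 2 strains farthest from the median of G6pc.

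Pklr and Igfbp1 varied in opposite directions, with r = -0.56 (rho -0.55, permutation p = 1e-05, adjusted p = 7e-05). Within panels, r was -0.44 in classical strains, -0.67 in BXD, -0.68 in AXB/BXA and -0.27 in CXB. The relation was not seen between mice of the same strain: over the deviations of 211 mice from their strain means, r was -0.07. After the 2 clock scores were removed, r over strains was -0.49. Igfbp1 was also negatively related to Fbp1 (r = -0.30, adjusted p = 0.00496) and Pck1 (-0.26, 0.0208), and was not called with G6pc (r = -0.03, adjusted p = 0.763) or Tat (r = 0.10, adjusted p = 0.428).

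**Figure D4:**
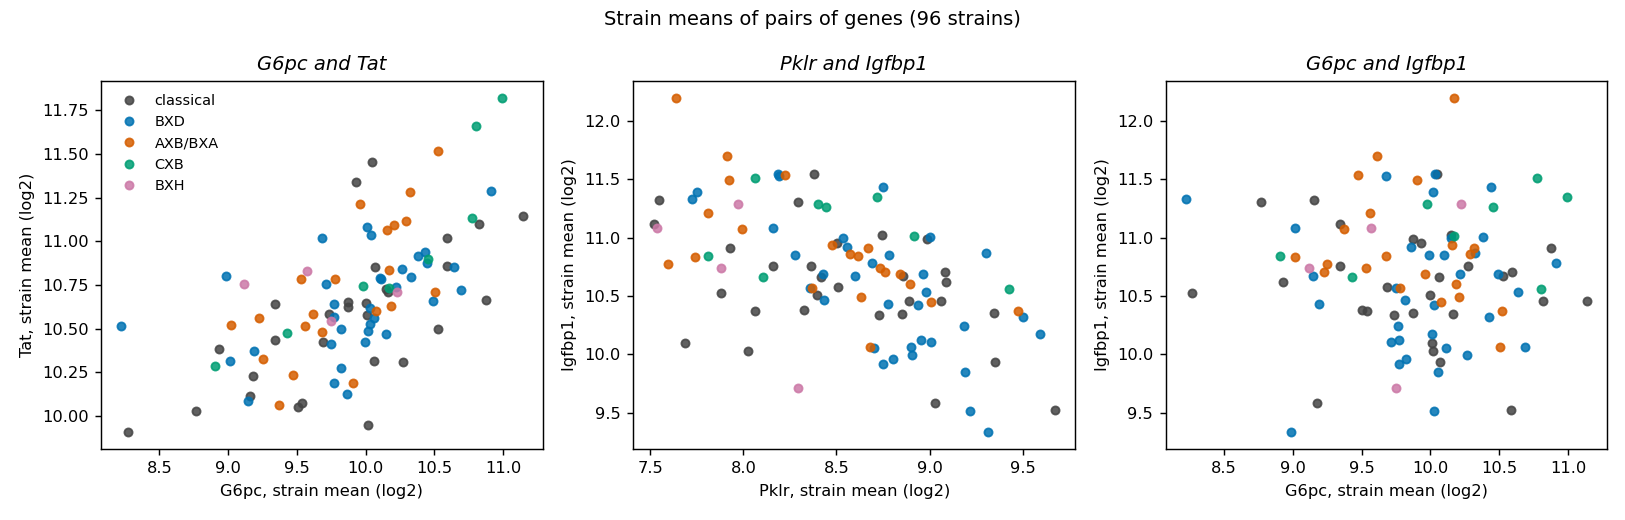
Strain means of log2 signal of G6pc against Tat, Pklr against Igfbp1 and G6pc against Igfbp1; each point is 1 of 96 maternal strains, coloured by panel. G6pc and Tat rise together (r = 0.62), Pklr and Igfbp1 run in opposite directions (r = -0.56), and G6pc and Igfbp1 show no trend (r = -0.03).

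Pklr was positively related to the gluconeogenic enzymes and to Tat as well. By permutation, r was 0.49 with Fbp1 (adjusted p = 7e-05), 0.42 with G6pc (0.00021), 0.34 with Pck1 (0.00197) and 0.38 with Tat (0.00042). G6pc with Fbp1 (0.39), Fbp1 with Tat (0.35), Pck1 with Tat (0.33) and Pck1 with G6pc (0.29) were the other positive pairs called, and no pair with Foxo1 was. Between mice of the same strain, with mice permuted only within strains, Fbp1 and Pklr (r = 0.60, adjusted p = 0.000105), Pklr and Tat (0.42, 0.000105) and G6pc and Tat (0.41, 0.00035) varied together too. There Igfbp1 was positively related to G6pc (0.28, adjusted p = 0.00661), and its r of 0.22 with Tat was not called (0.0622). After the clock scores were removed, 8 of the 12 pairs remained called. Pklr with Tat (r = 0.17, adjusted p = 0.186), Pck1 with Pklr (0.19, 0.134), Pck1 with Igfbp1 (-0.14, 0.292) and Pck1 with Tat (0.15, 0.248) were lost, and Igfbp1 with Tat was called (0.33, 0.00399).

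**Figure D5:**
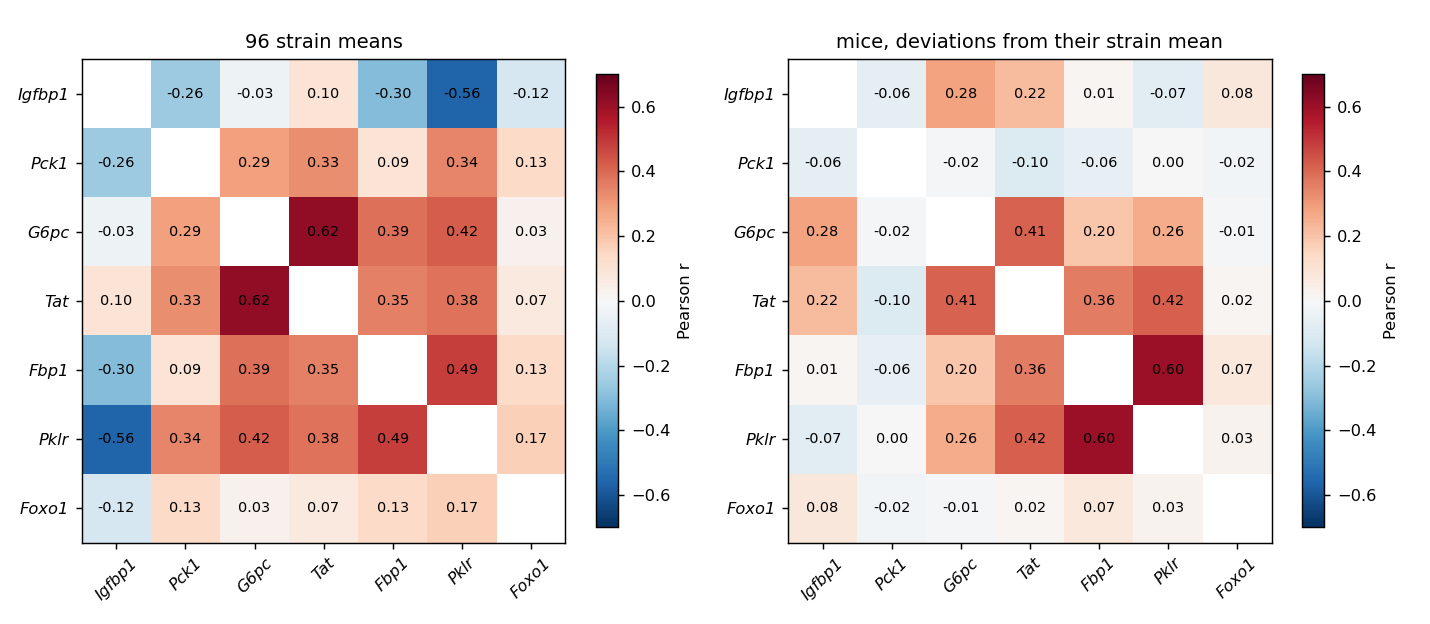
Pearson r between the 7 genes over 96 strain means (left) and over the deviations of 211 mice from their strain means (right); both axes list the genes and colour gives r. Pklr and Igfbp1 have r = -0.56 on the left and -0.07 on the right, whereas G6pc and Tat have 0.62 and 0.41.

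The brightest probe set shared by Ppargc1a and Asic2 was related to 5 of the 7 genes (7 relations, permutation p-values adjusted over them): r was 0.57 with Tat, 0.52 with Pck1, 0.50 with Pklr, 0.31 with G6pc and -0.39 with Igfbp1. Scores of clock genes, acute phase proteins and macrophages moved with the 7 genes as well. Of the 28 relations of the 7 genes with 4 such scores over strains, 13 were called by the same permutation test. Igfbp1 had r = -0.48 with the clock-day score and 0.42 with the clock-night score (Arntl, Npas2, Clock). Pklr had r = -0.51 with the acute phase score (Saa1, Saa2 and others), -0.50 with the macrophage score and 0.38 with the clock-day score. The acute phase score also had r = -0.38 with Pck1, -0.34 with G6pc, -0.34 with Tat and -0.28 with Fbp1. The part of these scores in the strain differences, beyond the clock covariates above, was not tested.

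Of all other genes, those with a pattern over the 96 strain means most like each of the 7 are given as a description, with no test. For Pklr they were Fasn (fatty acid synthase, r = 0.90), Gpam (the first step of glycerolipid synthesis, 0.88) and Thrsp (Spot 14, a factor of lipogenesis, 0.88), and the lowest r was with Zdhhc13 (-0.81). For Tat they were Klf15 (0.73), a transcription factor of amino acid breakdown, Ass1 (argininosuccinate synthase of the urea cycle, 0.73) and Yod1 (a deubiquitinase, 0.72), and Osgin1 had the lowest r (-0.62). For G6pc they were Slc25a25 (a mitochondrial ATP-Mg/phosphate carrier, 0.77), Kynu (kynureninase, 0.66) and Ei24 (0.65), with Cdt1, a DNA replication licensing factor, at -0.61. For Igfbp1 they were Trp53inp1 (a p53-induced stress protein, 0.84), Ifrd1 (0.79) and Wfdc3 (0.77), with Anks4b at -0.78.

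For Fbp1, the genes most alike were Higd2a (0.74), Sdha (0.69) and Ndufa8 (0.69), genes of the mitochondrial respiratory chain or its assembly, with the ribosomal protein gene Rpl27a at -0.63. For Pck1 they were Rdh16f2 (a retinol dehydrogenase family gene, 0.69), Ttc39b (0.66) and Agxt (a peroxisomal aminotransferase, 0.65), with Plekha1 at -0.66. Those for Foxo1 reached only 0.47 (Zfp3), 0.46 (Gp5) and 0.42 (Sh3tc2), with Hbb-bh1 at -0.44.

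Other genes of the pathway were put to the same strain F test. Their lists are bright (median signal of each list from 7.92 to 11.54). In the same fit 59.2% of all genes were called, and 89.2% of genes in a separate fit of bright probe sets alone. The median share was 0.251 over all genes and 0.370 over all bright probe sets. The latter set holds several probe sets for some genes and unnamed ones, whereas the lists take 1 per gene. No median over bright genes was computed. Of 24 gluconeogenic enzymes and transporters beside the members, 16 were measured and 15 of these passed the strain F test, with a median share of variance of 0.430, and the highest shares in Pck2, the mitochondrial form of the Pck1 enzyme (0.643), Gpd1 (0.614), Pcx, pyruvate carboxylase (0.614), and the glucose transporter Slc2a2 (0.588). All 16 measured genes of glycolysis, glycogen and glucokinase control, of 19, passed (median 0.546), with the highest shares in Pdk1 and Pdk2, kinases that shut off pyruvate dehydrogenase (0.761 and 0.719), Ppp1r3b, a glycogen-targeting subunit (0.699), and Pkm (0.674). Of 25 insulin signalling genes, 23 were measured and 20 passed (median 0.467), led by Igfbp2 (0.629), the insulin receptor Insr (0.610), Grb10 (0.594) and Trib3 (0.584). For glucagon, cAMP and glucocorticoid control, 25 of 27 were measured and 23 passed (median 0.505), led by Ppara (0.725), Sik1 (0.636), Cebpa (0.606) and Fgf21 (0.586). For amino acid breakdown, 11 of 13 were measured and all 11 passed (median 0.551), led by Kmo (0.689), Haao (0.682), Fah (0.619) and Hpd (0.612).

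The same lists were counted in the progenitor comparisons. Of their 91 measured genes, 19 were called in A/J, 19 in BALB/cJ and 16 in C3H/HeJ. The same fit called 10.5%, 9.72% and 8.53% of all genes. A separate fit of bright probe sets alone, adjusted over fewer probe sets, called 20.7%, 19.0% and 16.9% of genes, and is no like measure for the lists. How many bright genes were called in the main fit was not counted. In DBA/2J 0 were called by limma and 8 had an unadjusted p under 0.05. There 2.10% of all genes were called, and 4.21% of genes in the fit of bright probe sets alone. The share of all genes called lower was 4.61% in A/J, 4.20% in BALB/cJ and 3.15% in C3H/HeJ. In the fit of bright probe sets alone it was 9.27%, 8.32% and 6.65%. In A/J against C57BL/6J, 7 of the 11 measured genes of amino acid breakdown were called lower. In the glycolysis and glycogen list, 6 were called lower, Pdk1 (-1.52), Pdk2 (-1.29), Ppp1r3b (-0.89), Khk (-0.69), Mlxipl (-0.65) and Pygl (-0.52), and Pkm higher (0.78). Among gluconeogenic genes, Pcx was called lower (-0.33). In BALB/cJ, 5 of the genes of amino acid breakdown, 5 of the glycolysis list, Pdk1 among them (-2.17), and 4 gluconeogenic genes, Gpd1 (-0.70), Slc2a2 (-0.48), Pcx (-0.39) and Gapdh (-0.31), were called lower. The glucagon and glucocorticoid list moved in both directions there, with Fgf21, a fasting-induced hormone, higher (1.70) and Ppara lower (-0.91). In C3H/HeJ, 7 of the 11 genes of amino acid breakdown and 4 of the glycolysis list were called lower, and 2 insulin signalling genes higher. The median difference of all genes from C57BL/6J was close to 0 in each of these strains. All these comparisons share the same 2 C57BL/6J mice, so a list called lower in several strains is not several separate results. The list counts were not repeated without 1 of those mice.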

How the data were processed

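Per the labels, RNA from the livers of 220 mice was hybridised to 1 HT_MG-430 PM array each. The deposited log2 values are the authors' own, made with GCOS and RMA (versions not given in the sources used here), 1 table of 45141 probe sets; 104 array control probe sets were left out, leaving 45037, of which 28898 have 1 gene symbol, 551 several and 15588 none in the platform annotation used. Array number, not read depth, limits the precision, and deposited values were neither renormalised nor filtered in the main fits. A base difference under a probe can change its signal, and this was not tested.

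Mice were grouped by the maternal strain in the labels. The members, the pathway and marker lists and the tests were chosen with earlier results of these data known. All 9 members were named with all their probe sets, the brightest standing for a gene, together with the lowest, the middle and the highest strain, strains called, the 3 most alike genes and the 1 least alike, and up to 4 genes a list by share of variance. The 36 pairs planned for 9 genes became 21, since 7 had a probe set of their own. Fits used limma 3.58.1 in R 4.3.3 with Benjamini-Hochberg adjustment over all probe sets (for single strains, over all strains and probe sets, with a threshold of 0.05), after a check on simulated data. The share between strains is a one-way random-effects estimate. Correlations and their 100000 permutations (every order of the 8 strains for CXB) were computed with numpy 2.4.6. Their ranks and adjusted p-values used scipy 1.17.1. Alternatives left out mice, renormalised arrays, changed the probe sets or variance model, and added clock scores or the number in each mouse's title as covariates.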

Additional observations from a re-analysis of the deposited data

Results flagged for a closer look

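BXD20/TyJ is the only strain with 4 mice, and the only one large enough for a test of a single outlying mouse. On 1 of the 5 probe sets shared by Ppargc1a and Asic2 (mean 5.65 over all mice), 1 of its mice read 5.04, while the other 3 read 5.65, 5.67 and 5.73. Its gap to the nearest mouse was 0.894 of the range of the 4, above the critical value of 0.829. Of the 14 probe sets tested in this strain no other passed; chance passes about 1 in 20.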

How the results depend on the processing

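No paired analysis was possible because replicate numbers were given in accession order and pair no mice. Most calls rest on 2 or 3 mice a strain. The median share of variance of the 7 genes (0.519) lay between 0.328 and 0.624 when 1 mouse number was left out, with 36 strains left without number 1 or 2; all genes called by the strain F test fell from 10113 to 6446 without number 2. Of the 54 calls of single strains, 47 to 50 remained under each of 4 alternatives, which made 50 to 59 calls. In A/J, 1 or 2 of the 7 genes were called with 1 mouse left out (2 with all), and all genes called fell from 1800 to 443 without the first C57BL/6J mouse, from 359 to 117 in DBA/2J, from 1662 to 409 in BALB/cJ and from 1459 to 334 in C3H/HeJ. A strain left with 1 mouse is assumed to vary like the other strains. C3H/HeJ had 1 gene called, Pklr, with the progenitor strains alone (adjusted p = 0.0421) and with bright probe sets (0.0407), against 0. Tat in A/J was called in the same settings (0.0365 and 0.0457). Panels gave 4 called genes with strain as a random block, against 0 (Pklr 0.00416, Igfbp1 0.00782, Fbp1 0.0101, Tat 0.0466), and 3675 of all genes against 1491. The p-values of these 4 genes in that fit are likely too small, as said above.

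Within panels, leaving out 1 mouse number gave 2 to 3 called genes in classical strains, against 4 (all genes 1726 to 2167, against 7770), 1 to 3 in BXD, against 6 (all genes 2709 to 3661, against 7213), and 0 to 2 in CXB, against 0; clock covariates gave 1 in BXH (Igfbp1), against 0. All genes called in CXB fell from 333 to 44 without number 1 and to 64 with the clock covariates. In BXH they fell from 300 to 155 with the clock covariates. With 1 mouse number left out, only strains still with at least 2 mice were tested. Those counts therefore rest on fewer strains than the main fits and do not repeat the same test. Of the 12 pairs, 1 was called within classical strains alone, 5 within BXD, 5 within AXB/BXA and 0 within CXB, where fewer strains were tested. With deviations of mice permuted only within strains, an alternative chosen after seeing the data, 6 pairs were called, 5 of them of the 12; permuting all 211 deviations as if independent called 8, with p-values that are too small. Signs turned in CXB for Pck1 with Igfbp1 (0.17) and Fbp1 with Igfbp1 (0.083), and between mice of a strain for Fbp1 with Igfbp1 (0.013), Pck1 with G6pc (-0.016) and Pck1 with Tat (-0.10). For marker scores (13 relations called), alternatives chosen after seeing the data called 2 relations within classical strains, 3 within BXD, 1 within AXB/BXA and 2 within CXB, 1 of the latter among the 13, and within AXB/BXA the acute phase score had r = 0.20 with Fbp1 and 0.069 with Tat. Of the 5 relations of the probe set shared by Ppargc1a and Asic2, 0 were called within classical strains or CXB by permutation. The cause of these changes was not tested.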
